A study of Mus musculus with 6 samples.

Results

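Matricellular proteins are secreted into the extracellular matrix, where they act on cell adhesion, growth factor activity and matrix assembly more than as structural fibers. The 10 genes described here were taken from the table by gene symbol, out of 33924 genes listed. They are Fn1 (fibronectin), Postn (periostin), Tnc (tenascin C), Sparc, Vcan (versican), the thrombospondins Thbs1, Thbs2, Thbs3 and Thbs4, and Ctgf, now named Ccn2. All 10 genes were found.

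The libraries came from RPE/choroid, the retinal pigment epithelium scraped from the sclera together with the vascular choroid, of wild-type C57BL/6J mice, 3 of them young and 3 aged. Each sample pooled both eyes of a mouse. The titles give ages of 1 to 2 months for the young and 20 to 24 months for the aged mice, whereas the time field gives 22 to 24 months for the aged mice. The mice are labelled as male, while the study's methods describe both sexes and a somewhat older age range for the young mice. The study asked how the transcriptome of RPE/choroid differs between young and aged mice.

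The deposited values used here are the authors' mean normalized count of each gene over all 6 libraries, young and aged together. No value for a single library was analysed here, so no spread between mice and no depth of a library can be given, and no test was run. The columns of the authors' own age comparison were not used. The levels below therefore describe RPE/choroid averaged over both ages, and no member is described as higher or lower with age. Over all genes the mean normalized counts add up to 40816668, and the 10 members hold 0.317% of them.

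Matricellular proteins pass signals to cells through surface receptors. Fibronectin binds integrins through a loop with the amino acids arginine, glycine and aspartate (RGD), thrombospondin 1 binds CD36 and CD47, and versican holds hyaluronan and is cut by ADAMTS proteases. In the eye, Bruch's membrane and the choroidal stroma lie between the RPE and its blood supply and are built of such matrix.

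Of the 10 members, 4 hold the letters RGD in the reading frame of their longest full coding sequence (GENCODE M21 on GRCm38), namely Fn1, Thbs1, Thbs2 and Thbs4. Among 21437 genes with a full coding sequence the share is 7.27%. These genes were not matched to the members for coding length, and no test was made. The coding bases around each match are shown because RGD is the motif through which several of the receptors listed further on are known to recognize fibronectin. The printed bases run 5′ to 3′ on the coding strand, with 12 bases on either side in lower case and the 9 bases that encode RGD in capitals.

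Fn1, residues 1614 to 1616, exon 30 of 46: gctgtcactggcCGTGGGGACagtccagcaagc
Fn1, residues 2181 to 2183, exon 40 of 46: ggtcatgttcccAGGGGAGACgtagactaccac
Thbs1, residues 927 to 929, exon 18 of 22: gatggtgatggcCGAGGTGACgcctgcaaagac
Thbs2, residues 928 to 930, exon 18 of 22: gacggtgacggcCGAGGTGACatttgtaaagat
Thbs4, residues 138 to 140, exon 3 of 22: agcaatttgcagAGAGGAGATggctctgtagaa
Thbs4, residues 564 to 566, exon 13 of 22: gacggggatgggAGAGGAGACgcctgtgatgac

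The capitals lie in GRCm38 at chr1:71606746-71606754 and chr1:71597443-71597451 for Fn1, both on the minus strand. Those of Thbs1 lie at chr2:118122882-118122890 on the plus strand, and those of Thbs2 at chr17:14671484-14671492 on the minus strand. Those of Thbs4 lie at chr13:92776991-92776999 and chr13:92762788-92762796 on the minus strand. In Thbs1 and Thbs2 the printed bases before the capitals reach across an intron. The 9 capital bases of Thbs1 and Thbs2 are the same letters. The first match in Fn1 is in the known cell-binding loop of fibronectin, and the other matches are a description of the sequence, not shown sites. Postn, Tnc, Sparc, Vcan, Thbs3 and Ctgf hold no such letters in their reading frames.

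Levels were compared between genes per kilobase (kb) of the longest annotated transcript, which takes the mean as a count of reads. The study's methods derive its normalized counts from TPM values, a transcript abundance already divided by length, so it was examined how far the means still carry length. Among genes with 1 annotated transcript, 159 of 2059 genes up to 500 bases long had a mean at the lowest step of the table, taken as 1 count in 1 library. These means lay between 0.157 and 0.174, and the 26 such means among 1379 genes of 2000 to 4000 bases did not exceed 0.174 either. Values rounded to whole counts after a division by length would share such a step too, so the step cannot decide the question. The median of the means was 2.59 for the genes up to 500 bases and 264 for the 431 genes over 4000 bases. Over 15535 protein-coding genes at a mean of 10 or more, Spearman's rho with length was 0.0985 for the mean and -0.23 for the level per kb, as a description across genes that are not independent. These values do not settle whether the means were already divided by length, and where they were, the order by the mean itself is the one that applies. That order ran Sparc, Ctgf, Thbs1, Thbs4, Postn, Thbs2, Fn1, Tnc, Vcan and Thbs3 over a range of 85.2-fold, so that both orders differ only in the places of Thbs1 and Thbs4 and of Vcan and Thbs3.

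For levels per kb the comparison set was the 17976 genes of known length that reached a mean of 10 normalized counts, and their median was 213 per kb. The middle 50% of these genes lay between 53.8 and 668 per kb. The members ran from 75.2 to 23238 per kb, a range of 309-fold, with a median of 1159 per kb. Of the 10 members, 4 were in the highest 10% of genes per kb and 2 were below the median. By the mean normalized count itself, 7 of the 10 were in the highest 10% of 18479 genes and 1 was below the median.

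**Figure D1:**
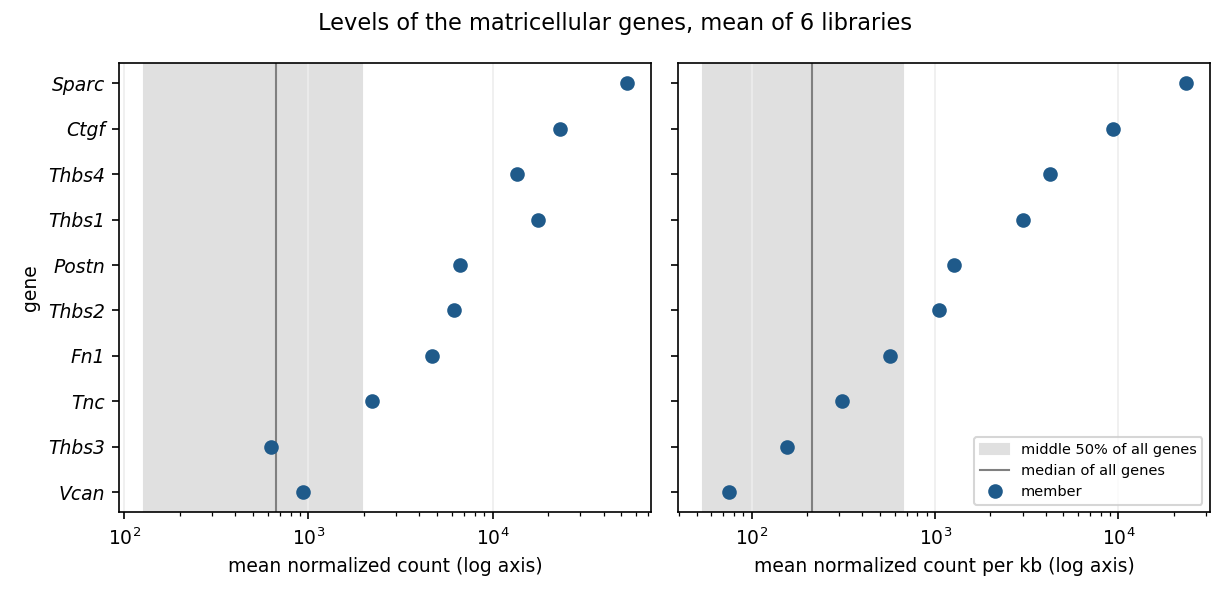
The authors' mean normalized count (left) and the same divided by the length of the longest transcript in kb (right) of each member, both on log axes, with 1 point a gene and no error because only the mean over 6 libraries was used. Per kb, Sparc stood at 23238 and Vcan at 75.2, and the grey band spans the middle 50% of all genes.

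Sparc, a collagen-binding glycoprotein, had the highest level of the 10 genes. Its mean normalized count was 53447, which placed it 43rd among the 33924 genes, and its level was 23238 per kb. Sparc alone held 53.7% of the members' summed level per kb. Ctgf, a secreted CCN protein induced by TGF-beta and by mechanical load, followed with 23352 normalized counts on average and 9378 per kb. Sparc was 2.48 times Ctgf per kb, and both together held 75.3% of the summed level. The place of Sparc and Ctgf at the head of the order was the same under each of 5 definitions of gene length. These were the longest transcript, the median of the protein-coding transcripts, the union of the exons, the coding length alone and the shortest transcript with the full coding sequence. For the median of the protein-coding transcripts, those with an incomplete coding sequence were not left out, so this length can be too short.

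The thrombospondins are a family of calcium-binding glycoproteins. Thbs1 and Thbs2 form trimers and inhibit angiogenesis, and Thbs3 and Thbs4 form pentamers. Thbs4, which is known from tendon and muscle, reached 13486 normalized counts on average and 4217 per kb. Thbs1 had 17733 and 3032 per kb. These were close, with Thbs4 at 1.39 times Thbs1 per kb but Thbs1 ahead by the count itself and by coding length. Thbs2 reached 6166 normalized counts on average and 1046 per kb, so that Thbs1 was 2.90 times Thbs2, and between 2.88 and 3.32 times over the 5 lengths. Thbs3 was the lowest of the family, with 628 normalized counts on average and 156 per kb, and Thbs4 was 27.1 times Thbs3 per kb. The 4 genes held 19.5% of the members' summed level.

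The thrombospondins differ enough in sequence for their reads to be told apart from each other. The coding sequences of Thbs1 and Thbs2 were 70.0% identical over 3425 aligned bases, and those of Thbs3 and Thbs4 70.1% over 2736. The other 4 pairs were between 66.5% and 67.1% identical. Stretches of 50 bases were compared only in the direction of each transcript, so overlap with genes on the opposite strand was not counted. In these terms no stretch in the transcripts of any thrombospondin occurred in a transcript of another gene. The same held for Postn, Tnc, Vcan and Ctgf. In Fn1 99.4% and in Sparc 99.4% of the stretches of 50 bases were found in no other gene.

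Fibronectin, periostin and tenascin C are adhesive proteins of provisional or loaded matrix. Postn, which binds collagen and promotes its crosslinking, reached 6648 normalized counts on average and 1273 per kb. Postn was 1.22 times Thbs2 per kb, but the ratio ran from 0.868 to 2.38 over the 5 lengths and was 1.08 by the mean itself. The longest annotated transcript of Postn has 2 exons and is not its coding transcript, and per coding length the level of Postn was 2644. Fn1 reached 4700 and 565 per kb, at percentile 71.4 of all genes per kb. Tnc had 2208 and 311 per kb, at percentile 58.5. Per kb Postn was 2.25 times Fn1, and Fn1 was 1.82 times Tnc.

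Vcan, the large hyaluronan-binding proteoglycan, had the lowest level per kb of the 10 genes, whereas Thbs3 was the lowest by the mean itself. The mean normalized count of Vcan was 934, at percentile 57.4 of the 18479 genes that reached a mean of 10. Its level over its longest transcript of 12427 bases was 75.2 per kb, at percentile 29.8. Vcan is spliced into forms with and without its long glycosaminoglycan exons, and its 9 annotated transcripts differ widely in length. With the median length of its protein-coding transcripts, 2297 bases, Vcan stood at 407 per kb and above Tnc and Thbs3. That median did not leave out transcripts with an incomplete coding sequence. With the shortest transcript that holds the full coding sequence Vcan stayed at 75.2 per kb, the lowest of the 10 genes. Which forms the libraries held cannot be told from a value for the whole gene, so the place of Vcan against Tnc depends on the length used.

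**Figure D2:**
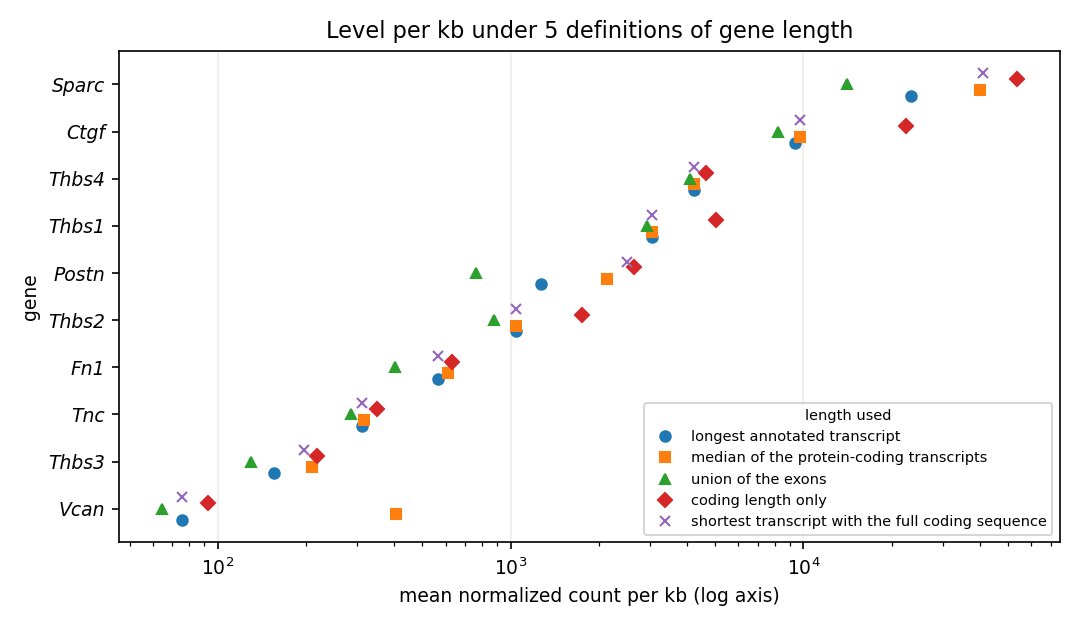
Level of each member per kb (log axis) with gene length taken in 5 ways, 1 marker for each way and no error since 1 mean over 6 libraries was used. Sparc spans 14110 to 53662 and stays first, Postn spans 764 to 2644, and Vcan rises to 407 only where the median length of its protein-coding transcripts was used.

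In GRCm38 the highest gene, Sparc (ENSMUSG00000018593), is at chr11:55394500-55423183 on the minus strand. Ctgf (ENSMUSG00000019997) is at chr10:24595442-24598683 on the plus strand, and Vcan (ENSMUSG00000021614) at chr13:89655312-89742509 on the minus strand. Thbs3 (ENSMUSG00000028047), at chr3:89215180-89226837 on the plus strand, is overlapped along its whole length by the annotated span of Mtx1 on the opposite strand. Mtx1, which encodes a mitochondrial import protein, had a mean normalized count of 1544 against 628 for Thbs3. The library kit marks strand, but whether the authors' quantification used it is not given in the sources used here, so the level of Thbs3 is uncertain. The other members lie at chr13:92751590-92794818 (Thbs4, ENSMUSG00000021702), chr17:14665500-14694235 (Thbs2, ENSMUSG00000023885), chr1:71585520-71653200 (Fn1, ENSMUSG00000026193) and chr4:63959785-64047015 (Tnc, ENSMUSG00000028364) on the minus strand. Thbs1 (ENSMUSG00000040152) lies at chr2:118111876-118127133 and Postn (ENSMUSG00000027750) at chr3:54361109-54391037 on the plus strand. Noncoding genes or pseudogenes on the opposite strand overlap Fn1, Tnc, Vcan, Thbs1 and Ctgf, and those in the table had mean normalized counts between 0.323 and 85.4.

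Beside the members, 17 other genes of matricellular proteins or their families were examined, and 16 of them reached a mean of 10 normalized counts. Their median was 375 per kb, 11 of the 16 were above the median of all genes and 3 were in the highest 10%. Spp1, which encodes osteopontin, was the highest with 12082 per kb. It was close to Ctgf, at 1.29 times per kb, 0.920 times by coding length and 0.780 times by the mean itself. Sparcl1, the closest relative of Sparc, stood at 5297 per kb, and Sparc was 4.39 times as high. The calcium-binding Smoc1 had 2051 per kb. Comp, the fifth thrombospondin, had 1502 per kb. Comp was close to Thbs2, at 1.44 times per kb and 0.589 times by the mean itself, and Thbs4 was 2.81 times Comp. Among the CCN relatives of Ctgf, Cyr61 had 1474 per kb, so that Ctgf was 6.36 times as high, and Nov had 643, Wisp2 397 and Wisp1 180. Wisp3 was below the minimum, with a mean normalized count of 6.88. The other tenascins were below the median of all genes per kb, with Tnxb at 138 per kb, Tnr at 58.6 and Tnn at 4.44. By the mean itself Tnxb (1683) and Tnr (715) were above the median of 668 normalized counts, and Tnn (25.8) was below it.

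Each of the 13 integrin and syndecan genes reached this minimum, with a median of 382 per kb. Those in the highest 10% of genes per kb were Sdc4, which encodes the heparan sulfate proteoglycan syndecan 4, with 5153 per kb, Itgb1 (4982), Itgb8 (4586), Itgb5 (3109) and Itgav (2426). Their order among each other depended on the length, as Sdc4 was between 0.207 and 3.90 times Itgav, and Itgb8 had the highest mean itself, 38535. Itgb8, Itgb5 and Itgav encode the alpha v chain and beta chains that pair with it to bind RGD. Itgb3 (77.7 per kb) and Itgb6 (87.6), which also pair with the alpha v chain, were below the median of all genes. Itga5, the alpha chain of the classical fibronectin receptor, was the lowest at 35.5 per kb, and Itgav was 68.3 times as high, with a range of 50.1 to 695 over the 5 lengths. Both the 695 and the 0.207 came from the median length of the protein-coding transcripts, where incomplete ones were not left out. With that length Itgav stood at 24870 per kb. Itga4 (61.5 per kb) and Itga8 (118) were below the median of all genes per kb as well, whereas Itga9, whose product binds tenascin C, had 382. By the mean itself Itga8, at 684, was just above the median of 668 normalized counts, and Itga4, at 601, was below it.

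Of the 9 other receptor genes, 8 were above the median of all genes per kb. Cd36, the scavenger receptor that binds thrombospondin 1 and outer segments, had 1696 per kb, the highest level over the longest transcript. With other lengths Cd36 was between 0.561 and 5.84 times Lrp1 and between 0.682 and 2.96 times Cd47, and by the mean itself 0.606 times Lrp1. Cd47, a further thrombospondin 1 receptor, had 648 per kb and Lrp1, an endocytic receptor of thrombospondins and Ctgf, had 639. Cd44, the hyaluronan receptor, had 356 per kb and Stab1, which takes up Sparc, had 425. Cacna2d1, a calcium channel subunit bound by thrombospondins, had 394 per kb. Ptprz1, a tenascin receptor, was the lowest with 144, but by the mean itself, at 1161, it was above the median of 668 normalized counts.

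The genes around TGF-beta, which thrombospondin 1 can release from its latent form, had a median of 397 per kb over 7 genes. Tgfb3 was the highest with 1371 per kb, and Tgfb1 the lowest with 46.7, a ratio of 29.3. Tgfb2 had 369 per kb, and the latent binding proteins Ltbp1 to Ltbp4 lay between 207 and 570.

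The 12 genes of proteases that cut members of the group had a median of 239 per kb, and 6 were above the median of all genes per kb. By the mean itself Adamts5 (1087) and Adamts9 (689) were above the median of 668 normalized counts as well. Mmp3, or stromelysin, was the highest with 9463 per kb, a level next to that of Ctgf over the longest transcript. By coding length Mmp3 stood at 11860 per kb and Ctgf at 22368, and by the mean itself at 17042 and 23352. Htra1, a secreted serine protease that cuts fibronectin, had 2434 per kb and the membrane-type Mmp14 had 1558. Among the ADAMTS proteases that cut versican, Adamts1 had 818 per kb, Adamts5 had 101, Adamts15 had 86.7, Adamts9 had 86.0, Adamts4 had 20.2 and Adamts20 had 18.7. Mmp9 was also low with 35.3 per kb.

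Among 11 matrix partners the median was 1010 per kb. By the mean itself it was 7582, against 6407 for the members. Decorin, encoded by Dcn, was the highest with 18042 per kb, and Sparc was 1.29 times as high, a close value that turned to 0.673 times under another length and 0.631 times by the mean itself. Col1a2 (6960 per kb) and Col3a1 (6447), chains of the fibrillar collagens to which Sparc binds, were both above the thrombospondins over the longest transcript. With the union of the exons they stood at 2995 and 3654 per kb, below Thbs4 at 4100. Fbn1 had 695 per kb. Hapln1, the link protein that fixes versican to hyaluronan, was the lowest with 9.87 per kb, and Hapln3 had 60.0.

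**Figure D3:**
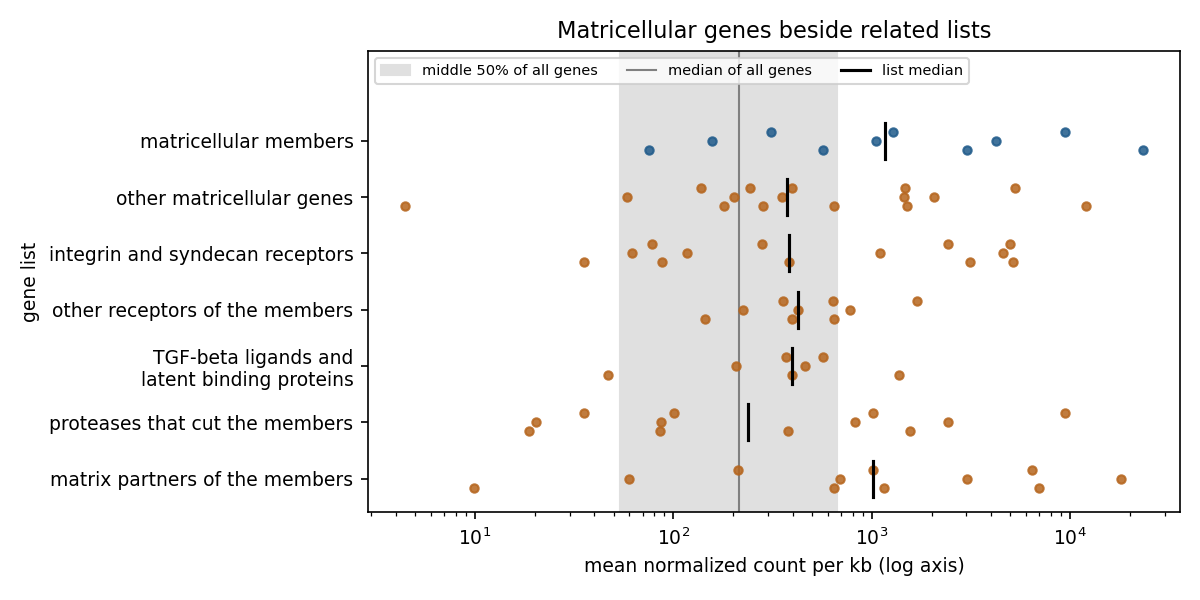
Level per kb (log axis) of the 10 members (blue) and of 6 related gene lists (brown), with 1 point for each gene that reached a mean of 10 normalized counts, a black bar at each list's median and the middle 50% of all genes in grey. Over the longest transcript the median was 1159 per kb for the members, 1010 for the matrix partners and between 239 and 425 for the other lists. By the mean itself it was 6407 for the members and 7582 for the matrix partners. With the median length of the protein-coding transcripts, incomplete ones not left out, it was 1588 per kb for the members and 1184 for the other receptors. No test was made between lists.

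The tissue label was checked on marker genes. The 8 RPE markers had a median of 34564 per kb, led by Ttr (335233), and the 6 melanocyte markers, several of which the RPE shares, one of 33901, led by Dct (74294). Markers of cell types that the choroid shares with other tissues were present. Their medians were 3985 per kb for fibroblasts, 2376 for pericytes and smooth muscle and 1079 for endothelium. The highest gene of these lists was Dcn (18042 per kb), Rgs5 (11043) and Emcn (2251). Rod photoreceptor and skeletal muscle markers, which belong to tissues outside RPE/choroid, had high medians too. The 6 rod photoreceptor markers had a median of 9422 per kb and the 6 skeletal muscle markers one of 20416, led by Mylpf (54080). The 5 macrophage markers in the table had a median of 2493 per kb, led by Lyz2 (92625), and the 5 Schwann cell markers one of 520, led by Pmp22 (2898). The 3 red cell markers found had a median of 54141 per kb, led by Hba-a2 (64451). The 6 markers of cartilage and tendon had a median of 150 per kb, and among them Fmod (2997 per kb) and Tnmd (2807), which encodes the tendon protein tenomodulin, were in the highest 10% of genes, while Acan (5.87) and Col2a1 (30.2) were low. Thbs4, Comp, Tnc and Postn are also made in tendon and muscle, and Sparc, Fn1 and Ctgf in many stromal cells. What each of these cell types adds to the level of a member was not tested, and in bulk tissue fewer cells of a type and less RNA per cell cannot be told apart.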

How the data were processed

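Poly(A)-selected, rRNA-depleted RNA of 6 RPE/choroid samples was sequenced. According to the study's methods, the authors trimmed reads with BBDuk, mapped them with STAR to Ensembl transcripts of GRCm38, quantified length-corrected TPM values with Sailfish, transformed these to normalized counts with a total count scaling and ran DESeq2 between young and aged libraries. The deposited table gives 1 signal a gene, the authors' mean normalized count over all libraries. The other 5 columns hold the log2 fold change, standard error, Wald statistic, p-value and adjusted p-value of the authors' comparison and were not used. The planned fit to values per library was therefore not run.

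Symbols were matched to GENCODE M21 (GRCm38), 28553 directly and 2507 through RefSeq synonyms (GRCm38.p6), Ctgf among these. Whether the TPM step left the means corrected for length is not given in the sources used here. The mean was divided by the length of the longest annotated transcript. Percentiles were taken over genes with a mean of at least 10, and 97.3% of these had a length. Neighbours with a ratio under 1.5 are called close, since no error could be had. Coding sequences were aligned globally with biopython 1.88. All computations used Python 3.11.15 with numpy 2.4.6 and pandas 2.3.3, and figures matplotlib 3.10.9. The length and percentile steps were tested on simulated data. The simulated counts were drawn in proportion to length, so they cannot tell whether the deposited means still carry length. All 10 members are named, with the highest and lowest gene of each list and further relatives, receptors and proteases, and for marker lists the median and, except for 1 gene not reported here, the highest gene. Members and lists were chosen with earlier results of these data known.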

Additional observations from a re-analysis of the deposited data

How the results depend on the processing

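No paired analysis was possible because only means over all 6 libraries were used. For the same reason omitting single replicates, the fit with the replicate block, other normalizations and pseudocounts, no filter on low values and DESeq2 were not run for the age comparison. A value was taken to have moved where it changed by over 1.5 times, as no spread between libraries was to be had.

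The median level of the members, 1159 per kb, became 2199 with coding length and 1768 with the shortest transcript that holds the full coding sequence, since both lengths are shorter by construction. It was 1588 and 822 under the remaining lengths. The share of Sparc in the members' summed level was between 41.3% and 65.4%, the median percentile between 84.2 and 95.3, and of 69 genes in the other lists 67 to 69 passed the minimum. Of 40 recomputed levels of single members 12 moved, 4 each for Sparc and Postn. The order changed at 3 places with the median coding transcript, where Vcan rose above Tnc and Thbs3, and at 2 each with the union of the exons (Thbs2 above Postn) and with coding length (Thbs1 above Thbs4). By the mean itself Thbs1 stood above Thbs4 and Vcan above Thbs3. Of 50 recomputed percentiles 1 moved, that of Vcan, from 57.4 by count to 29.8 per kb.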

Other observations

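Some genes stood far below others of the same cell type or complex in the authors' mean, and these were picked after their values were seen. Best1, a chloride channel of the RPE, was at 39.3 per kb while Rpe65 was at 61154. Tnnc2, the calcium sensor of fast skeletal muscle, was at 30.9 per kb while Mylpf, a light chain of the same fibers, was at 54080. Col1a1 was at 1010 per kb and Col1a2, whose chain joins with that of Col1a1 in collagen I, at 6960, a ratio of 6.89 that lay between 3.28 and 11.9 over the 5 lengths. Of the stretches of 50 bases, 99.8% of those of Best1, 100% of those of Tnnc2 and Col1a1 and 99.9% of those of Col1a2 were found in no other gene. These were compared only in the direction of each transcript. What set the low levels of these genes was not tested. Whether the level of a low member such as Vcan or Thbs3 is set in the same way was not tested.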
